A study of Mus musculus with 18 samples.

Results

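Solute carriers are membrane proteins that move sugars, amino acids, ions, metals, transmitters, lipids and metabolites across the plasma membrane or across the membranes of organelles. The genes described here were those whose platform symbol has the form Slc, a family number, the letter a and a member number, except Slc14a2 and Slc1a3, with 1 probe a gene and a value on all 18 arrays. The pattern matched 219 genes on 232 probes, and 142 genes had values on every array, out of 15063 genes named by a probe with 1 symbol. They belong to 41 families, of which 17 had 3 or more members and together held 107 of the genes. The tissue was neocortex of MF1 mouse embryos at E13.5, with no other treatment or genotype named, dissected into a rostral, a middle and a caudal part. Each region gave 3 RNA pools, and 18 arrays with 2 dyes each set a pool of one region against a pool of another, 6 arrays for each of the 3 pairings, so that every pool was labelled 2 times with Cy3 and 2 times with Cy5. The labels name 4 embryos as the source without tying them to pools, so a p-value reflects the spread of these pools only, and that spread could be technical.

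As background, a family shares ancestry and often a kind of substrate, but a shared family name does not mean a shared cargo. Slc1 and Slc6 carriers use the sodium gradient to clear glutamate, glycine and other transmitters, Slc2 carriers let glucose down its gradient, and Slc17, Slc18 and Slc32 carriers fill synaptic vesicles. Slc25 carriers exchange metabolites across the inner mitochondrial membrane. In the embryonic cortex, carriers feed proliferating progenitors from the ventricular fluid and the young vessels, and the balance of the chloride importer Slc12a2 and the chloride exporter Slc12a5 sets how young neurons respond to GABA.

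All values are relative. The files give 1 ratio of the 2 dyes per probe and array on the log2 scale, and a pool value is that pool's deviation from the mean of the 9 pools, estimated from its 4 arrays. A ratio says nothing of how abundant a transcript was, and carriers near background cannot be told from strongly expressed ones. Differences are given as rostral minus caudal, rostral minus middle or middle minus caudal in log2 units ± the standard error (SE) of the fit to 3 pools a region. The direction is likely and not stated: with Cy5 over Cy3, Nr2f1 differed by -1.02 ± 0.07 and Emx2 by -0.25 ± 0.08 in rostral against caudal, and both are known as caudally high, while Etv1 differed by 0.80 ± 0.07, Spry2 by 0.46 ± 0.06 and Pax6 by 0.31 ± 0.20, known as rostrally high. Of these 5 genes only Nr2f1 and Etv1 passed the threshold used throughout, an adjusted p under 0.05 in limma over 18525 features. Arrays were centred on their medians. Without that step all carriers would shift together, by -0.07 in rostral against caudal, and the median of all features by 0.10 in rostral against middle and by -0.17 in middle against caudal, so small values have a sign only relative to the array medians. An array gave between 18085 and 20693 values, and the number of pools, 3 a region, limits the precision. In such tissue, fewer cells of a type and less RNA per cell cannot be told apart.

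None of the solute carriers differed between rostral and caudal neocortex by the adjusted test: 0 of 142 passed in limma, against 12 of all features (0.0648%). At an unadjusted p under 0.05, 5 carriers were higher and 5 were lower in rostral pools, which is 7.04% of the carriers. Of all features, 4.17% were higher and 3.74% lower by that rule, so the carriers were called about as often as any feature. The carriers had values on all 18 arrays, and of all features with that many, 9.90% were called, 5.17% higher and 4.73% lower. Carriers were thus called somewhat less often than those features, a gap that was not tested. Their median difference was 0.01, against 0.00 over all features, and their differences lay between -0.39 and 0.45. All rostral pools lay above all caudal pools for 11 carriers and below them for 10. The same held for 1152 and 1092 of the 18525 features, so separate pools, given below for single genes, are not rare. With the 18 arrays in place of the 9 pools as the unit, a fit that ignores the spread between pools, 12 carriers (8.45%) passed in rostral against caudal, about the share of all features (8.43%).

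The steps within the axis gave fewer calls. In rostral against middle, 0 of 142 carriers passed and 0% of all features did. At an unadjusted p under 0.05, 1 carrier was higher (0.704%) and 3 were lower (2.11%) in rostral pools. The shares were 2.16% and 3.09% of all features, and 2.31% and 4.17% of those with values on all 18 arrays. In middle against caudal, 0 carriers and 0% of features passed. By the unadjusted rule 3 carriers were higher (2.11%) and 1 was lower (0.704%) in middle pools. The shares were 3.08% and 1.78% of all features, and 4.01% and 1.63% of those with values on all 18 arrays. The test for any difference among the 3 regions was passed by 0 carriers, with a lowest adjusted p of 0.17, against 0.0108% of features. Without adjustment 8 carriers met it, against 6.71% of features. With arrays as the unit, 6 carriers (4.23%) passed in rostral against middle, where 5.35% of all features did. By that fit 4 carriers (2.82%) passed in middle against caudal, against 3.48% of features, and 12 (8.45%) in the test for any difference, against 9.66%. Without centring, several values given below moved by more than 1.5 times. In rostral against middle they became 0.24 for Slc1a6, -0.17 for Slc25a3, -0.10 for Slc25a39 and -0.15 for Slc22a16. In middle against caudal they became 0.25 for Slc38a3, 0.18 for Slc25a20 and 0.21 for Slc4a1.

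For many carriers the data bound the measured ratio, which is more than a missed threshold says. Since carriers near background cannot be told apart here, this need not bound the difference in transcript. The 95% interval of rostral minus caudal lay wholly within 0.5 log2 units of 0, a 1.41-fold change either way, for 108 of the 142 carriers (76.1%), close to the 76.9% of the features with values on all 18 arrays. It did so for 114 carriers in rostral against middle and for 112 in middle against caudal. This bound was chosen after the values were seen. In rostral against caudal it held for 4 of 4 Slc1 and 5 of 5 Slc2 carriers, for 7 of 8 Slc6 and 17 of 22 Slc25 carriers, and for 6 of 11 Slc22 and 5 of 8 Slc7 carriers.

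**Figure D1:**
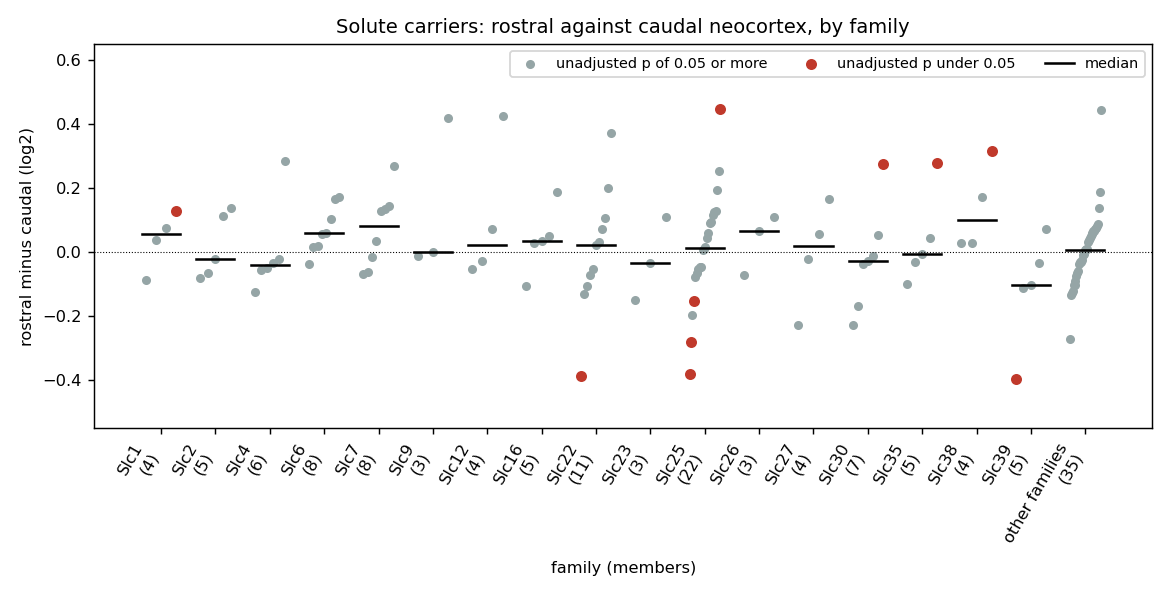
Rostral minus caudal difference (log2) of each of the 142 solute carriers, grouped by family, with the number of members under each name. Grey points have an unadjusted p of 0.05 or more, red points lie under it, and black lines are family medians. Family medians lie near 0, and the Slc25 family holds the red points at both ends, Slc25a20 at 0.45 and Slc25a3 at -0.38.

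Slc25a3, the carrier that brings phosphate into mitochondria for ATP synthesis, had the lowest p of all members. Its pool values were -0.16, -0.24 and -0.25 in rostral pools, 0.03, 0.06 and 0.06 in middle pools and 0.13, 0.13 and 0.22 in caudal pools. No pool of a region overlapped with those of another, and the order ran upward along the axis with the larger step between rostral and middle. The difference was -0.38 ± 0.05 for rostral against caudal, a 1.30-fold difference with an unadjusted p of 0.000109 and an adjusted p of 0.0619 in limma, just short of passing. It was -0.27 ± 0.05 for rostral against middle (adjusted p = 0.587) and -0.11 ± 0.05 for middle against caudal.

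The arrays that compared the ends directly gave the same sign for Slc25a3. The 6 rostral over caudal ratios lay between -0.54 and -0.33, all below 0, with a mean of -0.43 ± 0.09 (SD over arrays). The 6 rostral over middle ratios lay between -0.34 and -0.03, also all below 0. These arrays share pools, so they are not separate samples. Direct arrays, here and for carriers below, are also part of the 18 behind the pool values, so a shared sign is no separate support. The adjusted p was 0.0191 when only features with values on all 18 arrays were tested and 0.0215 without the noisiest 25% of features. It was between 0.226 and 0.546 with a pool left out.

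The 232 Gapdh control spots of the arrays differed between pools, and their values are given beside this carrier. Their median was -0.09, -0.04 and -0.15 in rostral pools, 0.07, 0.09 and 0.08 in middle pools and -0.14, 0.03 and 0.15 in caudal pools, so that caudal pools overlapped those of both other regions. With that median as a covariate, Slc25a3 differed by -0.35 between rostral and caudal pools (adjusted p = 0.172). Vim, an intermediate filament gene of radial glia, passed at -0.51 ± 0.05. It was the only 1 of the 7 radial glia markers measured to do so. Of these markers 4 were above and 3 below 0 in rostral against caudal, with a median of 0.00. The part of Gapdh or of radial glia in the carrier's difference was not tested.

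Slc25a20, which carries acylcarnitines into mitochondria for fatty acid oxidation, had the largest positive difference of the members. It stood at 0.18, 0.24 and 0.12 in rostral pools, at 0.11, 0.07 and 0.08 in middle pools and at -0.20, -0.11 and -0.49 in caudal pools. Rostral and middle pools all lay above 0 and caudal pools all below. Rostral minus caudal was 0.45 ± 0.10 (unadjusted p = 0.00225, adjusted p = 0.206 in limma) and middle minus caudal 0.35 ± 0.10 (adjusted p = 0.640). All 6 direct rostral over caudal arrays were above 0, between 0.20 and 0.72. Slc25a3 and Slc25a20 thus lay at opposite ends of the same family, and the step of Slc25a20 fell between middle and caudal.

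The bases just before the start of these 2 carriers are shown because they are the family's extremes. Both come from RefSeq on GRCm38.p6 and run 5′ to 3′ on the strand of the gene, with capitals where a GC box (GGGCGG, on either strand) was found. The windows are chr10:91123968-91124117 on the minus strand for Slc25a3 and chr9:108661986-108662135 on the plus strand for Slc25a20, each the 150 bases before the annotated start.
Slc25a3: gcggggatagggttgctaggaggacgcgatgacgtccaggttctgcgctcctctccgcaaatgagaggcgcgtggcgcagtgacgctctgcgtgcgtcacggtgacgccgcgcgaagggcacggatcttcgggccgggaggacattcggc
Slc25a20: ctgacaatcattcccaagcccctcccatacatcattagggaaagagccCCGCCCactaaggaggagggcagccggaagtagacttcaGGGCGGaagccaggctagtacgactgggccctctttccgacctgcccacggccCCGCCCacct
Slc25a20 held 3 GC boxes and Slc25a3 held 0, and such a box was found in 28.97% of 27025 genes in windows of this length. A CCAAT box (CCAAT, in 25.27% of genes) and a TATA box (TATAAA, in 8.08%) were found in neither window. G and C made up 67.3% of the Slc25a3 window and 62% of the Slc25a20 window. A match is a description of letters only.

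The other mitochondrial carriers spread around 0. Of the 22 Slc25 members, 13 were above and 9 below 0 in rostral against caudal, with a median of 0.01 (8 above 0 and a median of -0.06 without centring). At an unadjusted p under 0.05, 1 of the 22 was higher (4.55%, against 4.17% of all features) and 3 were lower (13.6%, against 3.74%). The median of all features was 0.00. The family was not tested as a group, and the 3 lower members were Slc25a3, Slc25a39 and Slc25a24. Slc25a39, known for bringing glutathione into mitochondria, was at -0.11, -0.11 and -0.13 in rostral pools, 0.07, 0.10 and 0.08 in middle pools and -0.01, 0.12 and -0.00 in caudal pools. Its rostral pools lay below all others, by -0.20 ± 0.05 against middle (unadjusted p = 0.00560, adjusted p = 0.647 in limma) and by -0.15 ± 0.05 against caudal. Slc25a24, a calcium-regulated carrier of ATP-magnesium and phosphate, was at -0.04, -0.28 and -0.03 in rostral pools, 0.03, 0.04 and -0.22 in middle pools and 0.25, 0.09 and 0.15 in caudal pools. Rostral and caudal pools did not overlap (-0.28 ± 0.10), but a middle pool lay among the rostral ones.

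The adenine nucleotide carriers, which work beside the phosphate carrier by exchanging ADP for ATP, differed little. Slc25a4 was at -0.09, -0.03 and -0.12 in rostral pools, -0.03, 0.10 and 0.17 in middle pools and -0.11, -0.03 and 0.13 in caudal pools, and the difference of the ends was -0.08 ± 0.08. Slc25a5 differed by 0.06 ± 0.10, and its rostral and caudal pools overlapped. Slc25a38, a glycine carrier needed for heme synthesis, differed by -0.20 ± 0.09 with an unadjusted p of 0.0583. The aspartate and glutamate carriers Slc25a12 and Slc25a13 differed by -0.06 ± 0.07 and 0.04 ± 0.05, and the citrate carrier Slc25a1 by 0.09 ± 0.15. Of the genes that import and insert such carriers, 11 of 12 listed were measured, 4 above and 7 below 0, and Tomm22, a receptor of the outer membrane, was lower at -0.22 ± 0.08 by the unadjusted rule. The pyruvate carrier gene Mpc1, which lies outside the Slc nomenclature, differed by 0.03 ± 0.07.

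**Figure D2:**
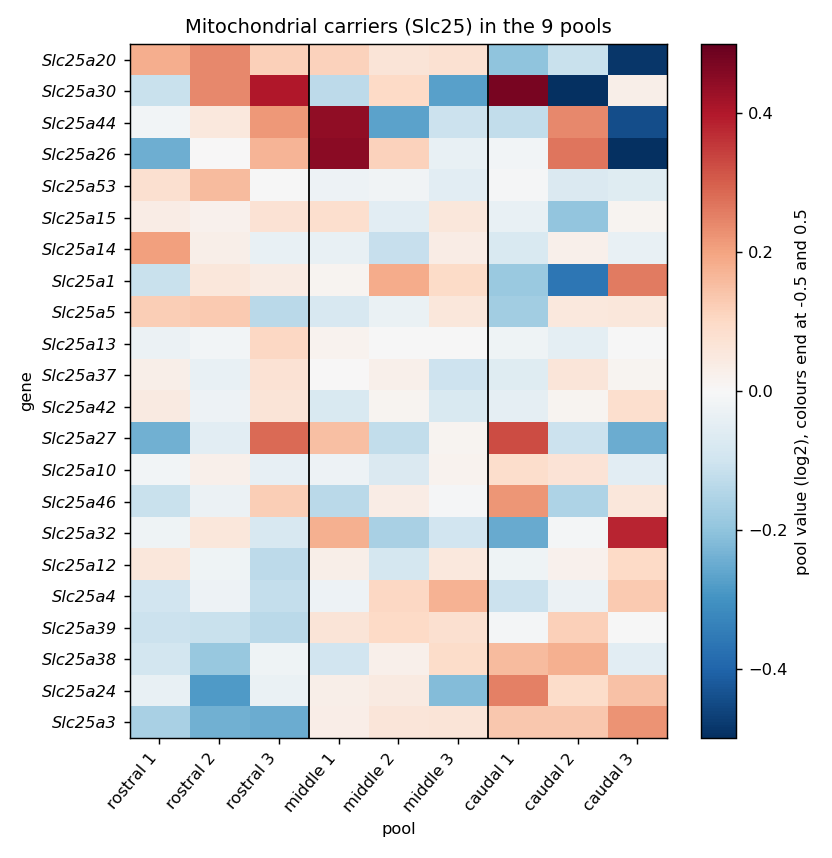
Pool values (log2, colour) of the 22 mitochondrial carriers in 3 rostral, 3 middle and 3 caudal pools, with genes ordered by rostral minus caudal. Slc25a20 at the top and Slc25a3 at the bottom have the largest positive and the most negative difference of the family, neither past the adjusted test, while Slc25a30, Slc25a44 and Slc25a26 differ more between pools of a region.

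Amino acid carriers lay slightly above 0, a lean that turned without centring (12 of 29 above 0, median -0.03). Over the Slc1, Slc3, Slc6, Slc7, Slc36, Slc38 and Slc43 families, 21 of 29 members were above 0 in rostral against caudal and 8 below, with a median of 0.04, where 50.4% of all features were above 0. By the unadjusted rule 2 were higher (6.90%, against 4.17% of all features). This grouping was made after values were seen and carries no test. In rostral against middle 15 of the 29 were above 0.

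Slc38a3, which exchanges glutamine with protons, was the carrier with the largest step from middle to caudal. It stood at 0.03, 0.00 and 0.18 in rostral pools, 0.28, 0.27 and -0.02 in middle pools and -0.17, -0.30 and -0.27 in caudal pools. Caudal pools lay below all the others, and rostral and middle pools overlapped. Middle minus caudal was 0.43 ± 0.10 (unadjusted p = 0.00271, adjusted p = 0.478 in limma) and rostral minus caudal 0.32 ± 0.10. All 4 Slc38 members were above 0 in rostral against caudal (2 of 4 without centring). However, the neutral amino acid carriers Slc38a1 and Slc38a2 differed by only 0.03 ± 0.07 and 0.03 ± 0.10. Slc38a10 differed by 0.17 on the probe used, with an interval of -0.28 to 0.62, and by 0.02 ± 0.05 on a second probe.

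Among the Slc1 carriers, Slc1a6, a glutamate transporter best known from cerebellar Purkinje cells, was higher in rostral pools by the unadjusted rule. Its values were 0.14, 0.03 and 0.11 in rostral pools, -0.07, -0.06 and -0.03 in middle pools and -0.08, -0.03 and -0.01 in caudal pools. The 3 rostral pools lay above all 6 others, by 0.13 ± 0.05 against caudal and 0.14 ± 0.05 against middle, the smallest difference among the carriers named by p. The difference against caudal was 0.06 without centring, and 0.05 without the array that joined rostral pool 3 and caudal pool 2. The neuronal glutamate transporter Slc1a1 differed by 0.08 ± 0.05 on the probe used here. A second Slc1a1 probe gave 0.62 ± 0.23 (unadjusted p = 0.0317, adjusted p = 0.540 in limma), with 0.48, -0.07 and 0.62 in rostral pools and 0.04, -0.55 and -0.32 in caudal pools. The probes share a sign and disagree in size, and the pools of the second overlapped. The neutral amino acid carriers Slc1a4 and Slc1a5 differed by -0.09 ± 0.06 and 0.04 ± 0.07.

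The Slc6 carriers of transmitters and related molecules leaned one way with small values, but not without centring (3 of 8 above 0). Of 8 members, 7 were above 0 in rostral against caudal, with a median of 0.06, a range of -0.04 to 0.17 and none past the unadjusted threshold. Slc6a9, which clears glycine, differed by 0.17 ± 0.20, and its highest value was 0.59 in a middle pool and its lowest -0.47 in a caudal pool. The taurine carrier Slc6a6 differed by -0.04 ± 0.12. The monoamine carriers are known from brainstem and subcortical neurons: the noradrenaline transporter Slc6a2 differed by 0.06 ± 0.08 on the probe used, the dopamine transporter Slc6a3 by 0.02 ± 0.09 and the serotonin transporter Slc6a4, which developing thalamic axons also carry for a time, by 0.06 ± 0.05. The other 2 Slc6a2 probes were below 0, at -0.02 ± 0.08 and -0.09 ± 0.17.

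Slc7a5 and Slc3a2 form the exchanger of large neutral amino acids at the blood-brain barrier and in progenitors. Slc3a2, the heavy chain, was at -0.06, 0.02 and -0.08 in rostral pools, 0.00, -0.00 and -0.06 in middle pools and -0.03, 0.09 and 0.12 in caudal pools (-0.10 ± 0.06). Slc7a5, the light chain, was at -0.01, 0.04 and -0.09 in rostral pools, 0.61, -0.44 and 0.06 in middle pools and -0.00, 0.43 and -0.60 in caudal pools. Its spread between middle and between caudal pools was far larger than its regional difference of 0.04 ± 0.32. The residual SD of Slc7a5 between arrays was wide too, at 0.78 against a median of 0.17 over the members. Its interval ran from -0.71 to 0.79, so no regional statement can be made. The endothelial markers, 10 of 10 measured, had a median rostral minus caudal of -0.07, with 3 above and 7 below 0 and none past the unadjusted threshold.

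No glucose or monocarboxylate carrier met the unadjusted rule in any comparison. Slc2a1, the glucose carrier of brain vessels and red cells, was at -0.10, -0.03 and -0.01 in rostral pools, 0.03, -0.01 and 0.02 in middle pools and 0.09, 0.06 and -0.05 in caudal pools. The difference of the ends was -0.08 ± 0.05, and its interval, -0.21 to 0.05, lay within a 1.41-fold change in the measured ratio. The neuronal glucose carrier Slc2a3 differed by -0.07 ± 0.12, and the 5 Slc2 members had a median of -0.02. The 5 Slc16 members had a median of 0.04, with 4 above and 1 below 0 (1 above without centring). Slc16a3, a lactate exporter, differed by 0.05 ± 0.06 and Slc16a7, another monocarboxylate carrier, by -0.11 ± 0.33. Bsg, the partner that brings such carriers to the membrane, was higher in all 3 rostral than in all 3 caudal pools (0.12 ± 0.05, unadjusted p = 0.0605 in limma). Emb, a related partner, differed by 0.83 ± 0.53 with overlapping pools.

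Vesicular carriers, which load transmitter into synaptic vesicles, did not separate the regions. Slc17a6, the vesicular glutamate carrier of many young neurons, was at -0.05, -0.00 and 0.29 in rostral pools, 0.01, -0.20 and -0.10 in middle pools and 0.21, -0.07 and -0.09 in caudal pools. A rostral and a caudal pool were the highest, and the difference of the ends was 0.07 ± 0.12. A second Slc17a6 probe gave 0.15 ± 0.14. Slc32a1, which loads GABA and glycine, differed by 0.01 ± 0.08, and the acetylcholine carrier Slc18a3 by -0.00 ± 0.13. Slc17a5, a lysosomal sialic acid exporter of the same family, differed by 0.06 ± 0.08. Of the transmitter enzymes 4 of 7 listed were measured, all 4 above 0 in rostral against caudal and none past the unadjusted threshold. Of the 14 listed subunits of the proton pump that powers vesicular loading, 12 were measured, 6 above and 6 below 0, and Atp6v1b2 was lower at -0.29 ± 0.12 by the unadjusted rule.

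The chloride importer and exporter of young neurons were close to 0 in every comparison. Slc12a2, the sodium-potassium-chloride importer, was at 0.07, -0.15 and -0.02 in rostral pools, -0.04, 0.08 and -0.00 in middle pools and 0.00, 0.01 and 0.05 in caudal pools (-0.05 ± 0.07). Slc12a5, the neuronal chloride exporter, was at -0.10, -0.01 and 0.03 in rostral pools, 0.05, 0.02 and -0.00 in middle pools and 0.08, 0.02 and -0.09 in caudal pools (-0.03 ± 0.06). Both intervals, -0.21 to 0.11 and -0.17 to 0.12, lay within a 1.41-fold change in the measured ratio. Slc12a7 differed by 0.07 ± 0.07. Slc12a4, another potassium-chloride cotransporter, differed by 0.43 ± 0.18 (unadjusted p = 0.0536 in limma), a value in which caudal pool 1 at -0.68 stood apart from the other caudal pools at 0.00 and 0.03.

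Stk39, a kinase that controls these cotransporters, had a lower p than any Slc12 member in rostral against caudal. It stood at 0.11, 0.22 and 0.11 in rostral pools, 0.08, 0.08 and 0.09 in middle pools and -0.32, -0.24 and -0.13 in caudal pools. All caudal pools lay below all others, and rostral minus caudal was 0.38 ± 0.06 (unadjusted p = 0.000500, adjusted p = 0.152 in limma). Of the 3 kinases listed 2 were measured. The other did not meet the unadjusted rule in any comparison. It differed by 0.09 in rostral against caudal and by -0.59 in middle against caudal, where Stk39 differed by 0.31. Of the sodium pump subunits, which build the gradient many carriers use, 3 of 6 listed were measured, all below 0 in rostral against caudal. Atp1b2 was at -0.01, -0.22 and -0.33 in rostral pools and 0.28, 0.11 and 0.18 in caudal pools (-0.38 ± 0.09, adjusted p = 0.284).

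Among the bicarbonate, sodium-proton and sodium-calcium carriers was Slc9a3, the member with the widest spread between pools. Of 6 Slc4 members 5 were below 0 in rostral against caudal, with a median of -0.04. The exception, Slc4a1, the anion exchanger of red cells known as band 3, was at 0.21, 0.05 and -0.08 in rostral pools, 0.33, -0.02 and 0.18 in middle pools and -0.35, -0.35 and 0.03 in caudal pools. Middle minus caudal was 0.39 ± 0.14 (unadjusted p = 0.0278, adjusted p = 0.933 in limma), and the pools overlapped. The red cell markers, 6 of 10 measured, had a median middle minus caudal of -0.01 and a median rostral minus caudal of -0.24, with 5 of 6 below 0 where Slc4a1 was above. Slc9a3, a sodium-proton exchanger best known from gut and kidney, had its highest value, 1.53, in rostral pool 2 and its lowest, -1.19, in middle pool 1, and its difference of 0.42 ± 0.67 says nothing of region. The sodium-calcium exchanger Slc8a1 differed by -0.12 ± 0.13, and by 0.05 ± 0.06 on a second probe. Slc8a3, a relative, differed by 0.44 ± 0.20 (unadjusted p = 0.0639 in limma), with 0.58 in rostral pool 3 as its highest value.

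The metal carriers lay on both sides of 0, with more below. Of 16 members 5 were above and 11 below 0 in rostral against caudal, with a median of -0.03, where 50.4% of all features were above 0. The grouping carries no test. Slc30a1, which exports zinc across the plasma membrane, was at 0.05, 0.22 and 0.19 in rostral pools, -0.09, 0.02 and -0.00 in middle pools and 0.02, -0.19 and -0.21 in caudal pools. All rostral pools lay above all middle and caudal pools, and rostral minus caudal was 0.28 ± 0.08 (unadjusted p = 0.0111, adjusted p = 0.375 in limma). All 6 direct arrays were above 0, between 0.16 and 0.44. Slc30a3, which loads zinc into synaptic vesicles, differed by 0.05 ± 0.09, and 5 of the 7 Slc30 members were below 0 (1 above without centring).

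Slc39a9, a zinc importer, had the most negative difference of all members, but on uneven arrays. It was at -0.16, -0.03 and -0.35 in rostral pools, -0.09, 0.00 and -0.01 in middle pools and 0.18, 0.32 and 0.14 in caudal pools (-0.39 ± 0.09, unadjusted p = 0.00316, adjusted p = 0.233 in limma). The 6 direct rostral over caudal arrays ranged from -1.77 to 0.19, and 3 of them were above 0. Without the array that joined rostral pool 3 and caudal pool 2, the lowest of them, the difference was -0.15, and without caudal pool 2 it was -0.23. Of the 5 Slc39 members 4 were below 0, with a median of -0.10 (0 above and a median of -0.18 without centring). The iron carriers Slc11a2 and Slc40a1 differed by 0.19 ± 0.11 and -0.01 ± 0.06.

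**Figure D3:**
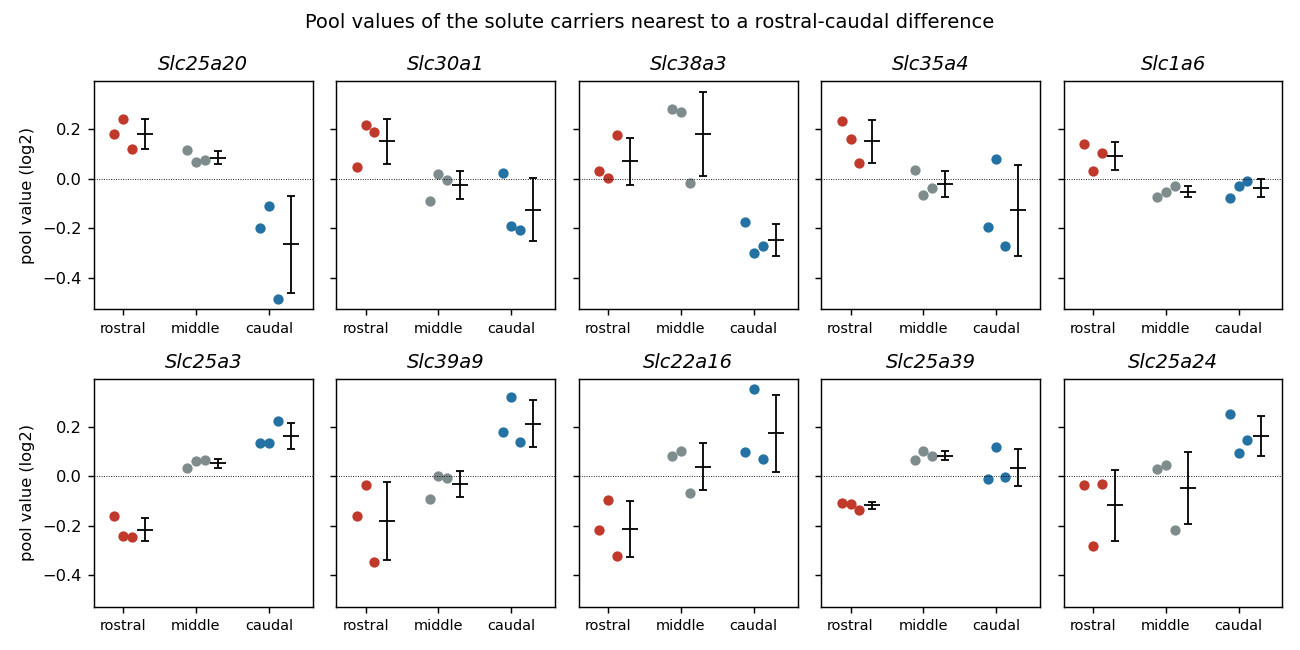
Pool values (log2) of the 10 solute carriers with an unadjusted p under 0.05 in rostral against caudal, higher in rostral in the upper row and lower in the lower row. Points are pools (rostral red, middle grey, caudal blue), and black marks are the mean and SD of 3 pools. Slc25a3 orders all 9 pools by region, and Slc38a3 and Slc25a20 set the caudal pools apart.

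**Figure D4:**
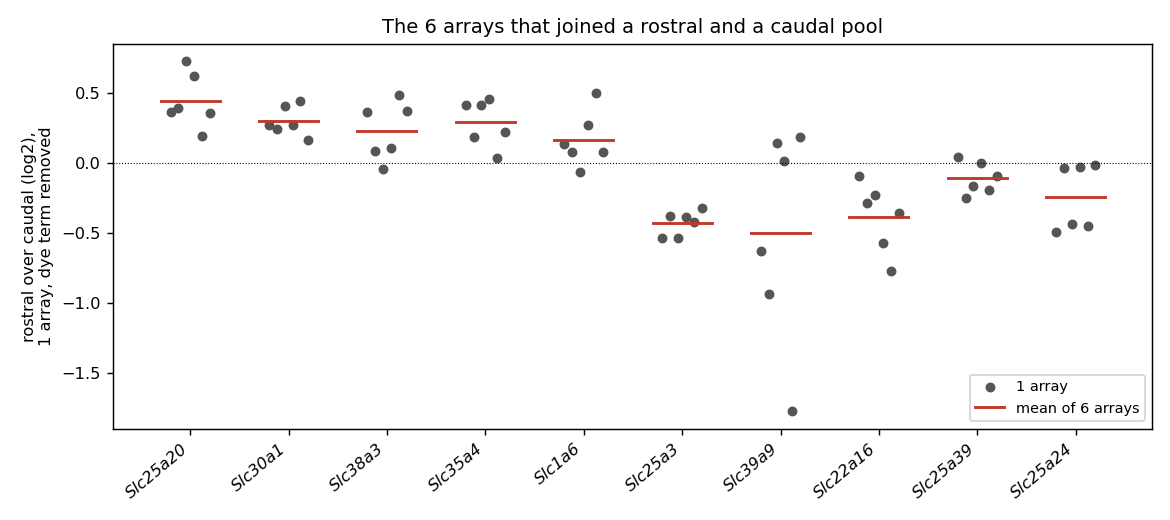
Rostral over caudal ratio (log2, dye term removed) on each of the 6 arrays that joined these regions, for the same 10 carriers; the red line is the mean. The Slc25a3 arrays lie between -0.54 and -0.33, while the Slc39a9 arrays lie between -1.77 and 0.19.

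Organic ion and vitamin carriers were balanced. Over the 24 members of Slc5, Slc10, Slc13, Slc15, Slc19, Slc22, Slc23, Slc44 and Slc46, 12 were above and 12 below 0 in rostral against caudal. Slc22a16, a carrier of carnitine and organic cations known from testis, was at -0.22, -0.10 and -0.32 in rostral pools, 0.08, 0.10 and -0.07 in middle pools and 0.10, 0.35 and 0.07 in caudal pools. Rostral pools lay below all others, by -0.39 ± 0.10 against caudal (unadjusted p = 0.00577, adjusted p = 0.303 in limma) and -0.25 ± 0.10 against middle. The other 10 Slc22 members did not meet the unadjusted rule, and the carnitine carrier Slc22a5 differed by -0.07 ± 0.06. Slc22a8, an organic anion carrier of choroid plexus and vessels, differed by 0.20 ± 0.15, a value that did not hold under several alternatives. It was -0.01 without the array that joined rostral pool 3 and caudal pool 2, 0.02 without either of these pools, 0.34 without caudal pool 1, and 0.07 with the Gapdh median as a covariate. The choroid plexus markers, 4 of 6 measured, had a median of 0.10, and the meningeal markers, 10 of 11 measured, were all below 0 with a median of -0.15 and 4 lower by the unadjusted rule. Their part in the carrier values was not tested. Slc44a2, a choline carrier, differed by -0.03 ± 0.40.

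Carriers of nucleotide sugars, nucleosides, phosphate and lipids were mostly narrow. Slc35a4, of the nucleotide sugar family, was at 0.23, 0.16 and 0.06 in rostral pools, 0.04, -0.06 and -0.04 in middle pools and -0.19, 0.08 and -0.27 in caudal pools. The difference of 0.28 ± 0.10 had an unadjusted p of 0.0237 (adjusted p = 0.483 in limma), and caudal pool 2 lay among the rostral pools. The UDP-galactose carrier Slc35a2 differed by 0.04 ± 0.04, the phosphate importers Slc20a1 and Slc20a2 by 0.05 ± 0.04 and -0.13 ± 0.10, and the nucleoside carrier Slc29a1 by -0.08 ± 0.10. The fatty acid carrier Slc27a4 differed by 0.17 ± 0.09, and all 4 Slc27 members were above 0 in middle against caudal (1 of 4 without centring), none past the unadjusted threshold.

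The order of the region means varied from carrier to carrier much as over all features. Region means fell at each step, rostral over middle over caudal, for 30 members (21.1%) and rose at each step for 30. The middle was highest for 42 members and lowest for 40. Over all features 19.1% fell, 17.7% rose, 31.6% had the middle highest and 31.6% had it lowest. Of the members named here by p, Slc25a20, Slc30a1 and Slc35a4 belong to the falling order and Slc25a3, Slc39a9, Slc22a16 and Slc25a24 to the rising one.

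The carriers with the widest spread between pools also had a wide residual spread between arrays. The SD between pools of a region had a median of 0.11 over the members, against 0.10 over the features on all 18 arrays, and reached 0.90 for Slc9a3. It was over 0.3 for 15 members. The most variable after Slc9a3 were the organic cation carrier Slc22a21, the proton-coupled amino acid carrier Slc36a1, Slc44a2, the amino acid carrier Slc43a1 and the fatty acid enzyme and carrier Slc27a2. Slc36a1 stood at -0.98 in rostral pool 2 and at 0.66 in rostral pool 1, and its difference of the ends was 0.08 ± 0.44. None of these had an unadjusted p under 0.05 in any comparison. Residual SDs between arrays were also wide for them, at 0.64 for Slc9a3, 1.03 for Slc22a21, 0.84 for Slc36a1 and 0.94 for Slc44a2. The median over the members was 0.17. A pool value is estimated from 4 arrays, so noise of the arrays enters the spread between pools, and its part was not tested.

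**Figure D5:**
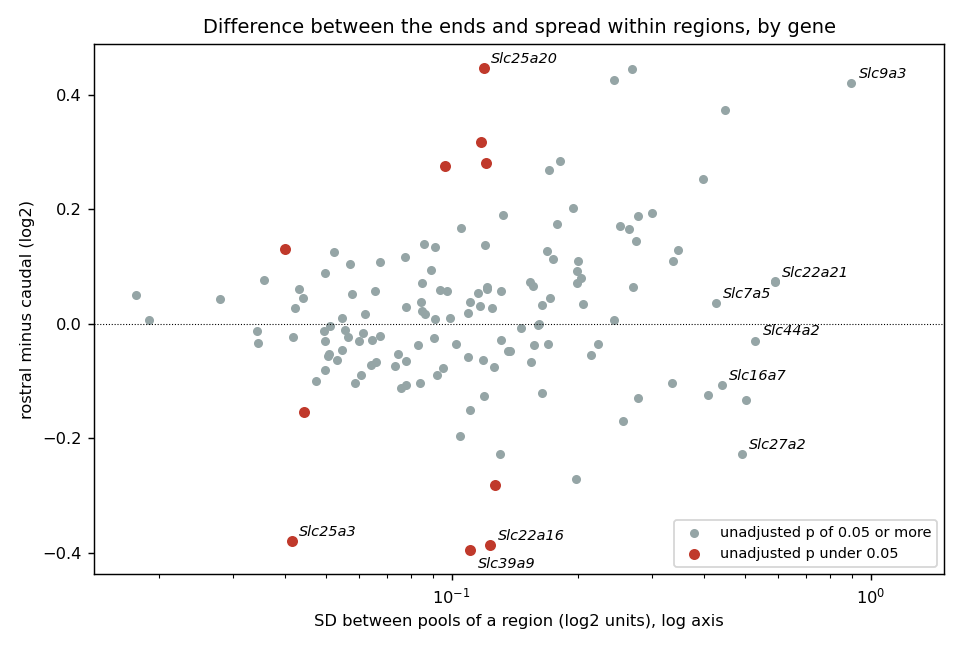
Rostral minus caudal difference (log2) of the 142 carriers against the SD between pools of a region (log axis). Red points have an unadjusted p under 0.05. Slc25a3 pairs a difference of -0.38 with a small SD, while Slc9a3 has a difference of 0.42 at an SD of 0.90.

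The 77 matching genes without a value on all arrays are not members. Of these 52 had enough arrays to be tested and 25 did not, and 0 of the 52 passed in limma. Among them, 2 met an unadjusted p under 0.05 in rostral against caudal, Slc16a13 at 0.62 and Slc46a3 at -0.45, named after their values were seen. Of 53 carriers listed for known roles in embryonic cortex or its vessels, 35 were members. Those not described include the glial glutamate carrier Slc1a2, the lactate carrier Slc16a1 and the vesicular glutamate carrier Slc17a7.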

How the data were processed

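The files hold, per probe and array, a log2 ratio of the 2 channels as deposited by the authors; the base was read from the cap at 16.61, log2 of 100000. How the arrays were scanned and normalized, and which dye is the numerator, is not given in the sources used; Cy5 over Cy3 was taken. Capped ratios (1477) were set to missing, chosen after seeing the data, and each array was centred on its median (-0.09 to 0.61 before), so differences are relative to the array median. The 232 Gapdh control spots were left out. Features with values on at least 12 arrays, 2 of each pool, were tested. Pool values were least squares coefficients summing to 0, with a dye term. They were estimated together from shared arrays, while the fit by region took them as independent and equally precise, so SEs and p-values are approximate. limma 3.58.1 in R 4.3.3 modelled the 9 pool values by region (6 residual and 1.26 prior degrees of freedom), two-sided, with Benjamini-Hochberg adjustment over 18525 features. The procedure was tested on simulated data.

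Where a gene had several probes, the one measured on most arrays was kept, the first where tied; 7 members had another tested probe. All 142 gene IDs were found in the reference table. Named were, per comparison, up to 6 members a direction with the lowest unadjusted p under 0.05, and members listed for known roles. Members and lists were chosen with earlier results of these data known. Pools shared numbers across regions, and the numbers were not taken as pairs. Deviations of same-numbered pools correlated at -0.36 to -0.04, and those of pools with different numbers at -0.39 to 0.56. No array joined same-numbered pools, and this layout enters the correlations, so they cannot decide whether the numbers mark pairs. Alternatives covered centring, feature filters, arrays as the unit, the replicate block, capped ratios, Gapdh as covariate, the dye term, a robust prior, other probes, and each pool or array left out. RefSeq windows were found for 109 of 142 members (76.8%), too few for a check of motifs over the set.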

Additional observations from a re-analysis of the deposited data

How the results depend on the processing

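Several counts of carriers called were taken in each alternative. Of these counts 231 stayed within 1.5 times the main count and 21 moved further. The former include adjusted counts that were 0 in the main fit and stayed 0. With an adjusted p under 0.05, 1 carrier (Slc25a3) passed in rostral against caudal among features on all 18 arrays and without the noisiest 25%. With arrays as the unit, 12, 6 and 4 carriers passed in rostral against caudal, rostral against middle and middle against caudal, and 12 in the test for any difference (8.45%, 4.23%, 2.82% and 8.45%, against 8.43%, 5.35%, 3.48% and 9.66% of all features). In the same 3 comparisons 31, 23 and 17 had an unadjusted p under 0.05 (21.8%, 16.2% and 11.97%, against 20.1%, 17.03% and 15.5%). With Gapdh as covariate 16, 9 and 8 carriers had an unadjusted p under 0.05 (11.3%, 6.34% and 5.63%, against 9.58%, 7.07% and 6.23%), and without centring 2 in rostral against middle (1.41%, against 4.55%) and 15 in middle against caudal (10.6%, against 12.1%). The cause of these changes was not tested. Without centring the median of all features shifted by -0.07, 0.10 and -0.17. With a pool left out, carriers with an unadjusted p under 0.05 numbered 7 to 14 in rostral against caudal, 1 (without middle pool 2) to 9 (without caudal pool 1; 7 without caudal pool 3) in rostral against middle, and 2 (without middle pool 3) to 7 (without caudal pool 3) in middle against caudal. With an array left out they numbered 8 to 14, 2 to 6 and 2 to 6, and 0 passed the adjusted test with any pool or array left out. With the pool number as a replicate block 0 carriers passed, and Slc25a3 had an adjusted p of 0.428. Over 36 alternatives Slc25a3 stayed between -0.45 and -0.34 in rostral against caudal, and Slc39a9 over 35 between -0.55 and -0.15. Among single genes and medians, 1876 values kept their side of the threshold or stayed within the spread between replicates. A further 16 brought a gene past the threshold, and 15 moved by more than that spread. The count of values kept is not a measure of stability. No carrier passed in the main fit, so a carrier named by p kept its side by not passing with the same sign, whatever its size. Slc25a20 in middle against caudal counted as kept at 0.18 without centring, against 0.35 in the main fit. For the carriers listed for known roles, a turn of sign within that spread could also count as kept.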
